A study of Mus musculus with 12 samples.

Results

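The genes described here are 36 imprinted mouse genes of 14 clusters on 9 chromosomes. They were taken by name from a gene count matrix of 24453 genes, in which all 36 had a row. Of these, 20 are known to be expressed from the paternal copy and 16 from the maternal copy in at least some tissues. RNA had been sequenced from mouse embryonic fibroblasts (MEFs) to examine the loss of PNPase, the mitochondrial RNA-processing enzyme encoded by Pnpt1. There were 12 samples, 3 replicate cultures for each of 4 lines. Their libraries are compared below to ask which imprinted genes were on or off in each line.

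All 4 lines descended from 1 immortalized culture of C57BL6/J MEFs that carried SV-40 large T-antigen and the Pnpt1 neo-flox/neo-flox genotype, and all were kept in medium with 50 µg/mL uridine. TM6 is that parental line, with no further treatment. The rho0 line was isolated as a single-cell colony after TM6 had been exposed for 3 weeks to 750 ng/mL ditercalinium, a DNA-binding dye that removes mitochondrial DNA. PKO-1 and PKO-6 were isolated as single-cell colonies after TM6 had received an adenovirus expressing Cre recombinase, which cuts out the floxed exon of Pnpt1. Each of the 3 derived lines is therefore 1 clone. A difference between lines cannot be told apart from a difference between single cells of the parental culture, and the 3 replicates of a line measure the spread between cultures of that clone only. The 3 comparisons with TM6 also share its 3 libraries.

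An imprinted gene is transcribed mainly from the copy inherited from 1 parent, because a control region carries DNA methylation set in the egg or the sperm and copied at each cell division. Most imprinted genes lie in clusters, where a protein-coding gene active on 1 parental copy often sits beside a noncoding RNA active on the other, and many of them control growth of the fetus and placenta. The C57BL6/J background is inbred and the count matrix holds no allele counts, so the parental copy in use was not measured in these libraries.

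Library totals ran from 47164860 to 67991378 counts, with a median of 55405647. The ribosomal precursor RNA Rn45s took 12.2% to 19.6% of them. Of 9 fibroblast marker genes, 8 were on in every line, and the summed marker level ran from 6171 to 11197 CPM (each count as a share of its TMM-scaled library total, on a fixed scale). Thy1 was at 0 in all 3 PKO-6 libraries. Marker lists of epithelial, blood, endothelial, neural, pluripotent and muscle cells summed to at most 3.56 CPM. Of the blood list, 1 of 4 markers was on in each line. In PKO-6 alone, 1 epithelial, 1 endothelial and 1 neural marker were on too, with list sums of 1.61 to 2.11, 2.51 to 2.9 and 1.53 to 1.6 CPM. Pnpt1, counted over the whole gene and not over the deleted exon alone, averaged 3131 ± 262 normalized counts in TM6 (SD, n = 3), 5271 ± 230 in rho0, 1240 ± 44.3 in PKO-1 and 1944 ± 250 in PKO-6.

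A gene was called on in a line where all 3 libraries held at least 1 CPM, off where all 3 held less than 0.1 CPM, and low otherwise. By this rule 20 of the 36 imprinted genes were on in TM6, 19 in rho0, 16 in PKO-1 and 17 in PKO-6. Another 7 were off in TM6, 11 in rho0, 9 in PKO-1 and 13 in PKO-6. Across all genes of the matrix, 45.9% to 47.3% were on and 40.9% to 43.3% were off in a line. Of the imprinted genes, 14 were on in all 4 lines (Ndn, Peg12, Igf2r, Airn, Cdkn1c, Kcnq1ot1, Cd81, Grb10, Peg10, Sgce, Copg2, Plagl1, Gnas and Impact). Another 6 were off in all 4 lines (Usp29, Zim1, Meg3, Rian, Mirg and Zdbf2). Peg3, Snrpn and Asb4 were on in TM6 and off in at least 1 derived line. These are 3 of the 23 imprinted genes on in any line (13%), beside 252 of 12153 genes of the whole matrix (2.07%). The list was chosen with earlier results of these data known, so these shares are a description and not a test. In TM6 the means were near the cut of 1 CPM, at 1.23 CPM for Peg3, 1.61 for Snrpn and 2.31 for Asb4. In bulk RNA such as this, fewer cells that express a gene and less RNA per cell cannot be told apart.

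**Figure D1:**
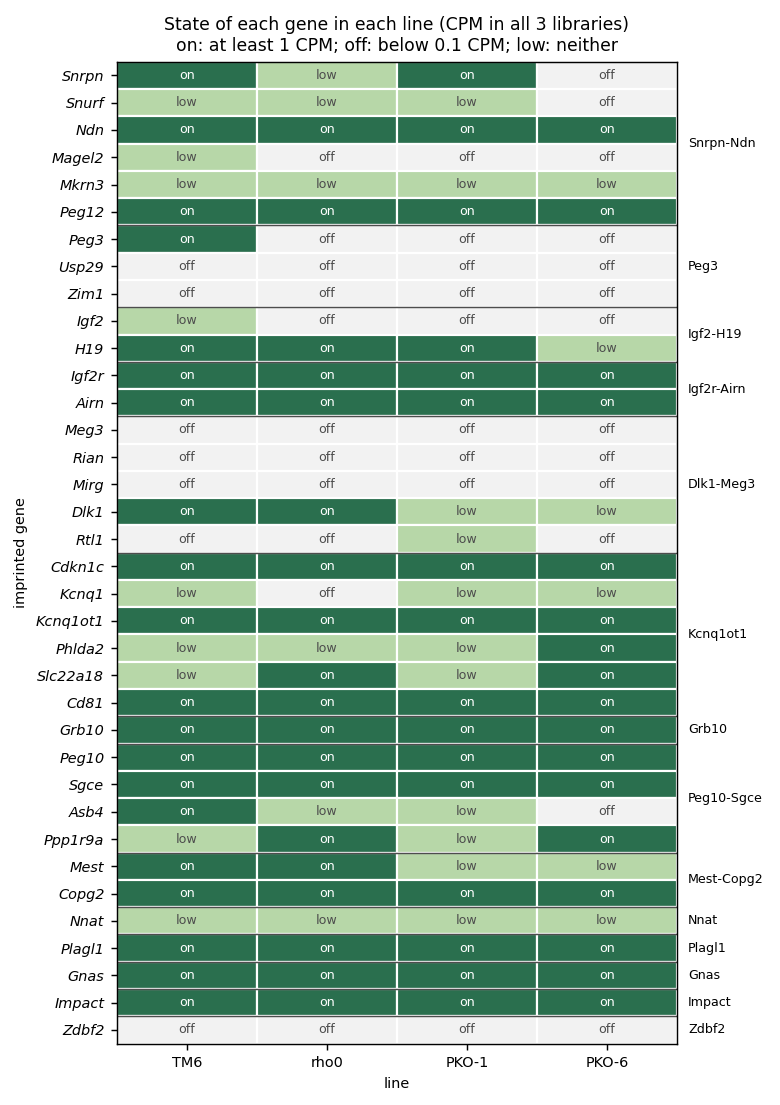
State of each of the 36 imprinted genes (rows, grouped by cluster as named on the right) in each of the 4 lines (columns): dark green is on (at least 1 CPM in all 3 libraries), light green is low and grey is off (below 0.1 CPM in all 3 libraries). Peg3 is on in TM6 and off in the 3 derived lines, while Snrpn is on in TM6 and PKO-1, low in rho0 and off in PKO-6.

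Of the 36 genes, 27 had enough counts to be tested and 9 did not (Usp29, Zim1, Igf2, Meg3, Rian, Mirg, Rtl1, Kcnq1 and Zdbf2). A gene was called changed where edgeR's quasi-likelihood test gave an adjusted p under 0.01 and the log2 fold change exceeded 0.5 in size. The model was fitted to all 14026 genes that passed a filter on low counts. A gene that passed this filter only through the line where it was high had to differ, so the counts that follow describe the tested genes and not the whole list. In rho0 against TM6, 16 of 27 changed (59.3%), where 42.1% of all tested genes did. Of these, 9 were higher (33.3%, against 20.7% of all genes) and 7 lower (25.9%, against 21.4%). In PKO-1 against TM6, 16 changed (59.3%, against 34.3% of all genes), 8 higher (29.6%, against 16.4%) and 8 lower (29.6%, against 17.9%). In PKO-6 against TM6, 15 changed (55.6%, against 41.3%), 7 higher (25.9%, against 21.9%) and 8 lower (29.6%, against 19.4%). Between the 2 Cre-derived clones, 11 differed (40.7%, against 29.1%), 5 higher in PKO-1 (18.5%, against 11.5%) and 6 lower (22.2%, against 17.6%).

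The median absolute log2 fold change of the 27 tested imprinted genes was 0.778 in rho0 against TM6, 0.626 in PKO-1 against TM6, 0.797 in PKO-6 against TM6 and 0.592 between the clones. Over all tested genes the same medians were 0.485, 0.391, 0.457 and 0.342. The signed medians of the imprinted genes were 0.02, 0.11, 0.07 and -0.15, beside 0.02, 0.00, 0.01 and -0.01 for all tested genes. With both clones fitted as 1 group, 8 imprinted genes changed in rho0 (29.6%, where 29.3% of all tested genes did) and 8 in the pooled clones (29.6%, against 25.7%), shares near those of all genes. That fit had a biological coefficient of variation of 0.248 against 0.0837 with the 4 lines fitted separately. Of the 16 tested genes expressed from the paternal copy, 5 were higher and 5 lower in rho0, 3 higher and 6 lower in PKO-1, and 2 higher and 6 lower in PKO-6. Of the 11 tested genes expressed from the maternal copy, 4 were higher and 2 lower in rho0, and 5 were higher and 2 lower in PKO-1 as in PKO-6. Of all tested genes, 20.7% were higher and 21.4% lower in rho0, 16.4% and 17.9% in PKO-1, and 21.9% and 19.4% in PKO-6. A pattern by parental copy was not tested, and these imprinted genes are too few to settle whether there is one.

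**Figure D2:**
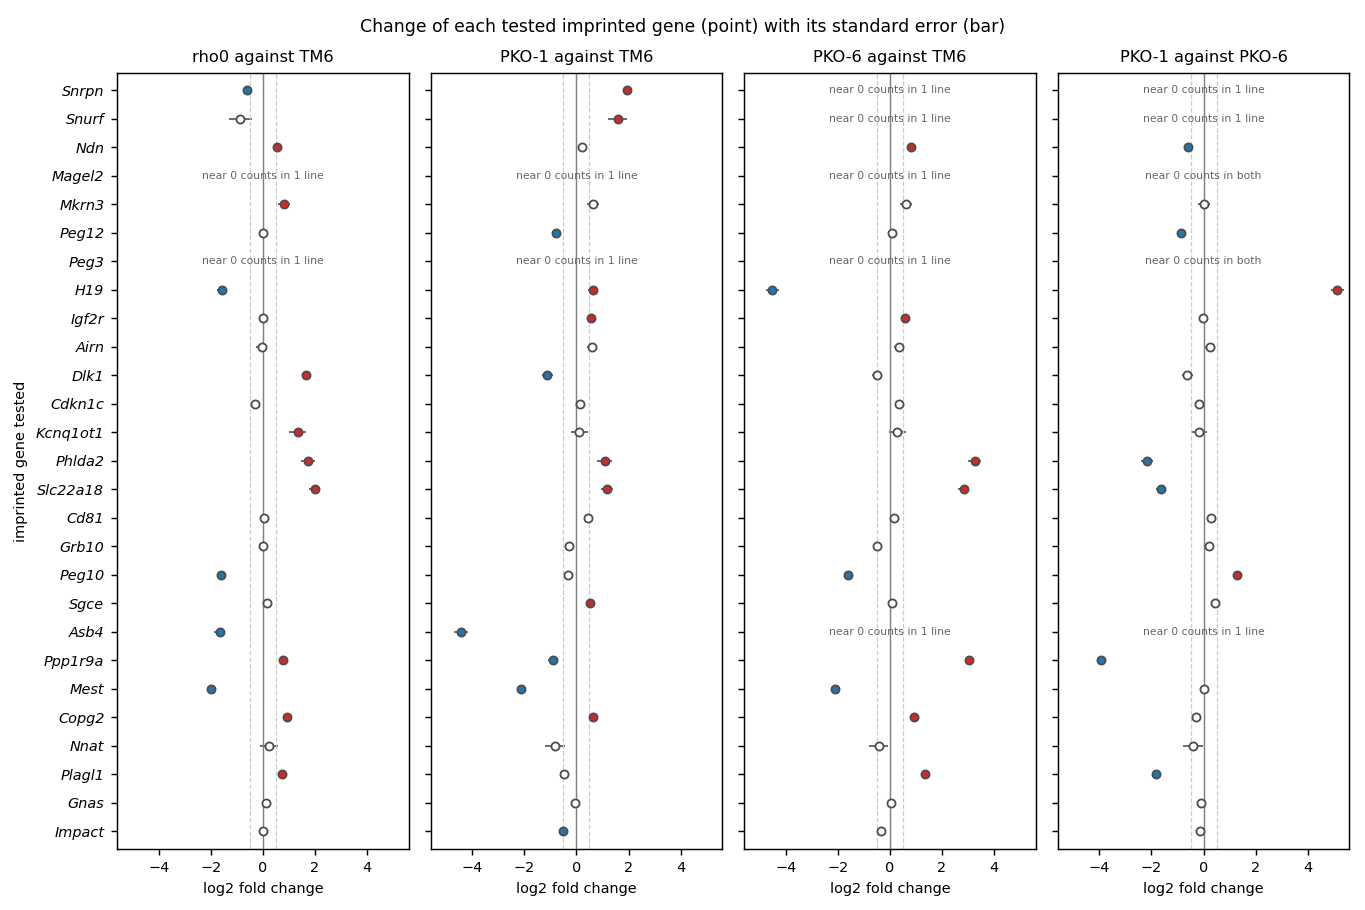
Log2 fold change (x axis) of each of the 27 tested imprinted genes (y axis) in the 4 comparisons, with its standard error as a bar. Filled points passed the test (red higher, blue lower in the line named first), open points did not, dashed lines mark a log2 fold change of 0.5 in either direction, and genes near 0 counts are marked in words because their fitted values have no stable size. H19 reaches -4.52 in PKO-6 against TM6 and 5.14 in PKO-1 against PKO-6.

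The Snrpn-Ndn cluster (chr7:59982501-62464510, mm10) is the mouse counterpart of the Prader-Willi region, and its 6 genes measured here are expressed from the paternal copy. Snrpn, which encodes a spliceosome protein, was the most divergent of them. It was held at 82.7, 95.7 and 94.2 normalized counts in the TM6 libraries and at 61.4, 69 and 49.1 in rho0. In PKO-1 the libraries held 399, 332 and 308 normalized counts, and in PKO-6 they held 0.704, 0.922 and 0. No 2 lines overlapped, with PKO-1 highest and PKO-6 at or near 0. Snrpn rose in PKO-1 with a log2 fold change of 1.93 ± 0.156 (SE) against TM6 (edgeR adjusted p = 1.21e-07). In PKO-6, 2 counts over the 3 libraries stood against 290 in TM6, a ratio of 146 (95% exact counting interval, 39.9 to 1207). Its fall in rho0 was small (log2 fold change -0.60 ± 0.172, edgeR adjusted p = 0.00634). That call was lost without TM6 replicate 2 or 3, rho0 replicate 1 or 3, or PKO-1 replicate 2, with values from -0.63 to -0.50.

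Snurf, a small protein encoded upstream on the same RNA as Snrpn, shares 1970 exon bases with it, and reads in these bases were divided between both genes by the counting. The estimates of each were therefore not whole numbers in 11 of 12 libraries, while their sums were whole (within 0.02) in 12 of 12. Summed, Snrpn and Snurf held 105 ± 1.77 normalized counts in TM6 (SD, n = 3), 67.6 ± 12.5 in rho0, 391 ± 49.8 in PKO-1, but 0.618 ± 0.546 in PKO-6. On its own, Snurf rose in PKO-1 (log2 fold change 1.59 ± 0.36, edgeR adjusted p = 0.00213), a call lost without TM6 replicate 2 (1.36) or 3 (1.39). It was at least 16.1-fold lower in PKO-6 than in TM6, taking a floor of 3 counts over the line's libraries. All Snrpn counts fell on the transcript that starts beside Snurf, and its 2 transcripts with starts farther upstream held 0 counts in every line.

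The promoter shared by Snrpn and Snurf is shown because both genes were at or near 0 in PKO-6 and highest in PKO-1. The transcripts that were counted start at 60005156, while the RefSeq promoter set used for sequences places the start at 60005199. The sequence is the 250 bases before the latter (GRCm38.p6, chr7:60005200-60005449, minus strand), with its 3 CG dinucleotides, the bases at which imprinting methylation is carried, in capitals.
Snrpn and Snurf promoter: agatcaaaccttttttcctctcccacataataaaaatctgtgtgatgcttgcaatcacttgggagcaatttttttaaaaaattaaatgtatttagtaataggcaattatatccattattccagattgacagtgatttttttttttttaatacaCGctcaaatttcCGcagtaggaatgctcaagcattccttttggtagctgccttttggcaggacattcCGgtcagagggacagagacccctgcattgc

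The other listed genes of the cluster did not follow Snrpn and Snurf over the 4 lines, although Magel2 was also off in PKO-6. For 4 unlisted genes tested inside the cluster's span or within 1 megabase of it, log2 fold changes ran from -5.52 to 2.97 in PKO-6 against TM6 (median 1.11). Between PKO-1 and PKO-6 they ran from -1.68 to 7.81 (median -0.23). At least 1 of these genes was thus lower in PKO-6, but the median was positive, and a loss over the region is not shown. Whether that gene belongs to an imprinted transcript was not examined. Magel2, an intronless gene for a regulator of ubiquitin ligases, held 12.1, 22 and 26.9 normalized counts in TM6 and was off in the derived lines. The 3 libraries of each derived line together held 1 count in rho0, 0 in PKO-1 and 4 in PKO-6, against 64 in TM6. Every TM6 library lay above every library of the derived lines. Magel2 was thus lower in rho0 by a ratio of 56.5 (95% exact counting interval, 9.78 to 2266), in PKO-1 by at least 18.3-fold and in PKO-6 by a ratio of 16.1 (5.97 to 60.7).

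Ndn, the gene of the growth suppressor necdin, was on in all 4 lines. Its libraries held 1167, 1124 and 1096 normalized counts in TM6, 1814, 1558 and 1564 in rho0, 1282, 1342 and 1282 in PKO-1, and 2007, 2139 and 1742 in PKO-6. The TM6 libraries were the lowest and did not overlap with any other line. Ndn rose in PKO-6 (log2 fold change 0.80 ± 0.0782, edgeR adjusted p = 6.07e-07) and by 0.54 ± 0.0785 in rho0 (edgeR adjusted p = 2.86e-05), the latter call being lost without rho0 replicate 1 (0.45) or with each chromosome's median change removed (0.41). In PKO-1 it stood at 0.21 ± 0.079 and did not pass the test. Peg12, a gene of the family of GSK-3 inhibitors, averaged 435 ± 18.9 normalized counts in TM6, 436 ± 9.71 in rho0 and 458 ± 49.5 in PKO-6, but fell to 250 ± 12 in PKO-1 (log2 fold change -0.80 ± 0.0914, edgeR adjusted p = 3.92e-06). Mkrn3, an E3 ubiquitin ligase that restrains the onset of puberty, was low in all 4 lines at means of 32.6 to 57.5 normalized counts. It passed the test in rho0 alone (0.81 ± 0.224, edgeR adjusted p = 0.0052), and 4 single libraries (TM6 replicates 2 and 3, rho0 replicate 2 and PKO-6 replicate 1) each ended that call when left out, with values of 0.63 to 0.79.

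Peg3, a paternally expressed zinc-finger gene that gives its name to a cluster at chr7:6675443-6967219, was on in TM6 and off in every derived line. Its TM6 libraries held 73.5, 69.7 and 64.8 normalized counts. In rho0 all 3 libraries were at 0, in PKO-1 they held 0, 0 and 1.03, and in PKO-6 0.819, 1.04 and 2.91. The TM6 range and the range of the derived lines were thus far apart. Against 223 counts in TM6, Peg3 was at least 65.6-fold lower in rho0, lower in PKO-1 by a ratio of 191 (95% exact counting interval, 33.9 to 7577) and lower in PKO-6 by a ratio of 44.8 (18.9 to 139). Even in TM6 the level per length was small, at 0.327 TPM, the unit that scales each library's length-corrected levels to a fixed total.

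Usp29, a deubiquitinase gene that starts 164 bases from Peg3 and runs the other way, held 1.49 normalized counts in TM6 replicate 1 and 0 in the 11 other libraries. Zim1, a maternally expressed zinc-finger gene next to them, was at 0 in all 12. Both were too low for any comparison. The promoter of Peg3 is shown as that of the gene that went from on to off in each clone, with its 8 CG dinucleotides in capitals (GRCm38.p6, chr7:6730420-6730669, minus strand, the 250 bases before the start). Of these bases, 163 also lie within the 250 before Usp29.
Peg3 promoter: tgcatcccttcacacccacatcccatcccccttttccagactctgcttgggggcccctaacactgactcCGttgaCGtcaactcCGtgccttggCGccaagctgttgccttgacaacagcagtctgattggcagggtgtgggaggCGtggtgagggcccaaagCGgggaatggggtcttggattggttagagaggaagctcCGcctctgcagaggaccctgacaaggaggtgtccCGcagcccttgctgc

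**Figure D3:**
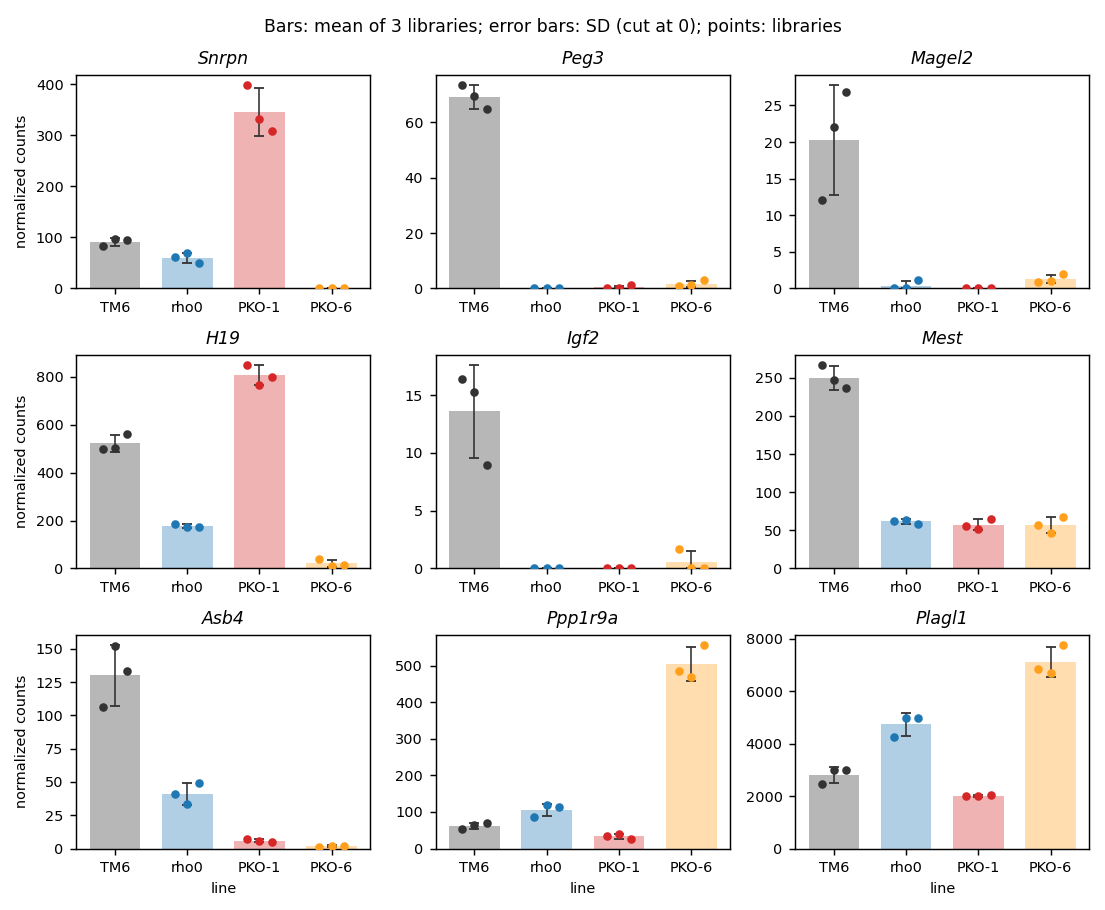
Normalized counts (y axis) of 9 imprinted genes in the 4 lines (x axis), with the mean of 3 libraries as a bar, the SD as an error bar and each library as a point. Peg3, Magel2, Igf2, Mest and Asb4 are highest in TM6, whereas Snrpn and H19 are highest in PKO-1 and Ppp1r9a and Plagl1 in PKO-6.

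The Igf2-H19 cluster (chr7:142575530-142666816) pairs the paternally expressed growth factor Igf2 with the maternally expressed noncoding RNA H19, which share enhancers. H19 separated all 4 lines. Its libraries held 500, 503 and 563 normalized counts in TM6, 185, 172 and 171 in rho0, 850, 767 and 800 in PKO-1, and 38.5, 11.4 and 15.5 in PKO-6. No 2 lines overlapped, and the order ran from PKO-1 through TM6 and rho0 to PKO-6. H19 fell in rho0 (log2 fold change -1.57 ± 0.188, edgeR adjusted p = 4.71e-06) and in PKO-6 (-4.52 ± 0.239, edgeR adjusted p = 1.00e-09), and without PKO-6 replicate 1 the latter value was -5.29. It was higher in PKO-1 by 0.63 ± 0.174 (edgeR adjusted p = 0.00614). This call was lost when any single TM6 or PKO-1 library or rho0 replicate 2 or 3 was left out, with values of 0.56 to 0.68.

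Igf2 was low in TM6, where the libraries held 16.4, 15.3 and 8.97 normalized counts, and 96.1% ± 3.64 of its counts came from the start site farthest upstream. It was at 0 in all rho0 and PKO-1 libraries, and PKO-6 held 1.64, 0 and 0. Against 44 counts in TM6, Igf2 was at least 12.9-fold lower in rho0, at least 12.6-fold lower in PKO-1 and lower in PKO-6 by a ratio of 22.1 (95% exact counting interval, 5.76 to 188). The gene did not pass the filter on low counts and has no edgeR value.

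On chromosome 17, Igf2r (chr17:12682406-12769706), the maternally expressed receptor that clears IGF2, was abundant in all lines. It held 18908, 19705 and 18565 normalized counts in TM6 and 19510, 19147 and 19221 in rho0, with overlapping ranges. In PKO-1 it held 27547, 29705 and 26400, and in PKO-6 27660, 29436 and 27922, above every TM6 library. The increase was 0.55 ± 0.056 on the log2 scale in PKO-1 (edgeR adjusted p = 1.28e-06) and 0.57 ± 0.056 in PKO-6 (edgeR adjusted p = 6.00e-07). With each chromosome's median change removed, these values were 0.35 and 0.38, below the threshold of 0.5. Airn, the paternally expressed antisense RNA that silences Igf2r, averaged 120 ± 17.7 normalized counts in TM6, 117 ± 34.1 in rho0, 182 ± 14.2 in PKO-1 and 152 ± 20 in PKO-6. None of its comparisons passed the test, and the nearest was PKO-1 against TM6 (0.59 ± 0.193, edgeR adjusted p = 0.0159). Igf2r and Airn share 0 exon bases, but Airn starts inside Igf2r on the opposite strand. Whether reads of Igf2r entered the Airn counts was not tested.

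In the Dlk1-Meg3 cluster (chr12:109452823-109749457), the maternally expressed noncoding RNAs Meg3, Rian and Mirg were off in all 4 lines, and none of them exceeded 2.38 normalized counts in any library. Dlk1, the paternally expressed inhibitor of fat cell formation, was present throughout. Its libraries held 112, 103 and 82.8 normalized counts in TM6, 387, 276 and 287 in rho0, 45.2, 53.3 and 38.3 in PKO-1, and 68.8, 86 and 56.2 in PKO-6. The rho0 libraries lay above all others and those of PKO-1 below all of TM6, while PKO-6 overlapped with TM6. Dlk1 rose in rho0 (log2 fold change 1.67 ± 0.182, edgeR adjusted p = 1.93e-06) and fell in PKO-1 (-1.13 ± 0.211, edgeR adjusted p = 3.33e-04). In PKO-6 it stood at -0.51 ± 0.197 (edgeR adjusted p = 0.034). The 491 tested genes of chromosome 12 had a median log2 fold change against TM6 of 0.55 in rho0, 0.56 in PKO-1 and 0.53 in PKO-6. With chromosome medians removed, the Dlk1 value in PKO-1 was -1.68 and still called. In rho0 the lowest Dlk1 value over 19 other settings, this one among them, was 1.12, and the call was kept in all. Rtl1, the paternally expressed retrotransposon-derived gene between Meg3 and Rian, was at 0 in TM6 and rho0 and held 8.33, 4.26 and 4.14 normalized counts in PKO-1, at least 5.84-fold above TM6. In PKO-6 replicate 2 it held 2.07 and in the other PKO-6 libraries 0.

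The Kcnq1ot1 cluster (chr7:143052750-143502524) holds growth-restraining genes expressed from the maternal copy, silenced on the paternal copy by the long noncoding RNA Kcnq1ot1. Among them Phlda2, which limits placental growth, held 20.8, 19.1 and 8.97 normalized counts in TM6, 57.1, 58.7 and 46.9 in rho0, 26.2, 44.7 and 33.1 in PKO-1, and 174, 152 and 149 in PKO-6. Every library of a derived line exceeded the TM6 range, and PKO-6 was the highest. The log2 fold change against TM6 was 1.72 ± 0.269 in rho0 (edgeR adjusted p = 6.13e-05), 1.08 ± 0.284 in PKO-1 (edgeR adjusted p = 0.00439) and 3.26 ± 0.251 in PKO-6 (edgeR adjusted p = 4.85e-08). The call in PKO-1 was lost without TM6 replicate 3 (0.80) or PKO-1 replicate 2 (0.85).

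Slc22a18, an organic cation transporter gene next to Phlda2, had the same order of lines. It held 19, 21 and 25.9 normalized counts in TM6, 50, 49 and 51.7 in PKO-1, 102, 75.3 and 84.9 in rho0, and 180, 172 and 115 in PKO-6, with no overlap between lines. It rose by a log2 fold change of 1.99 ± 0.219 in rho0 (edgeR adjusted p = 2.03e-06), 1.19 ± 0.231 in PKO-1 (edgeR adjusted p = 4.37e-04) and 2.83 ± 0.212 in PKO-6 (edgeR adjusted p = 3.66e-08). Cdkn1c, the cell cycle inhibitor p57, lies between them and the noncoding RNA, and averaged 705 ± 35.3 normalized counts in TM6, 574 ± 60.9 in rho0, 776 ± 39.9 in PKO-1 and 888 ± 32.4 in PKO-6. None of its log2 fold changes against TM6 (-0.30 in rho0, 0.14 in PKO-1 and 0.33 in PKO-6) reached 0.5. Cd81, a tetraspanin at the edge of the cluster, likewise stayed under the threshold, with a value of 0.45 ± 0.0624 in PKO-1.

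Kcnq1ot1 itself was on in all lines at means of 6855 to 17365 normalized counts. The rho0 libraries were uneven, at 8056, 24608 and 19432, while TM6 held 7536, 5124 and 7904. Only the lowest rho0 library was near the TM6 range. Its increase in rho0 (log2 fold change 1.34 ± 0.324, edgeR adjusted p = 0.00212) was lost without rho0 replicate 2 (0.98) or TM6 replicate 2 (1.16). In PKO-1 (0.11 ± 0.321) and PKO-6 (0.28 ± 0.32) it did not pass the test. Kcnq1, the potassium channel gene in which Kcnq1ot1 lies on the opposite strand, was at 0 in all 3 rho0 libraries and between 2.99 and 8.73 normalized counts in the 9 others. It shares 121 exon bases with Kcnq1ot1, and was at least 4.12-fold lower in rho0 than in TM6.

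Grb10 (chr11:11930499-12037420), a maternally expressed adaptor protein that dampens insulin signalling, held means of 26799 ± 1078 normalized counts in TM6, 26561 ± 1356 in rho0, 22071 ± 790 in PKO-1 and 19027 ± 638 in the PKO-6 clone. The TM6 and rho0 ranges overlapped, and both clones lay below them. Its log2 fold change was -0.49 ± 0.0576 in PKO-6 (edgeR adjusted p = 3.51e-06), just inside the threshold, which it passed in 9 of 19 other settings at up to -0.56. Between 97.8% and 99.5% of its counts belonged, on average, to the upstream start site in every line, the start used outside the nervous system.

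In the cluster around Peg10 and Sgce (chr6:4674350-5433021), Peg10, a paternally expressed gene of retrotransposon origin needed for the placenta, held 8843, 9315 and 8928 normalized counts in TM6, 7141, 7422 and 7019 in PKO-1, 2977, 2932 and 3037 in rho0, and 2774, 3108 and 2886 in PKO-6. Thus rho0 and PKO-6 shared a low range, with TM6 and PKO-1 well above it. Peg10 fell in rho0 (log2 fold change -1.60 ± 0.0519, edgeR adjusted p = 1.05e-11) and in PKO-6 (-1.63 ± 0.0519, edgeR adjusted p = 5.84e-12). In PKO-1 it stood at -0.33 ± 0.0504, under the threshold, and at -0.54 with chromosome medians removed. Sgce, the paternally expressed sarcoglycan gene that starts head to head with Peg10, averaged 955 ± 45.1 normalized counts in TM6, 1049 ± 63.6 in rho0, 1375 ± 104 in PKO-1 and 1020 ± 50.1 in PKO-6. It was called in PKO-1 only (0.53 ± 0.0719, edgeR adjusted p = 2.06e-05), a call that 9 of 19 other settings took below the threshold, among them leaving out TM6 replicate 1 (0.46) or PKO-1 replicate 2 (0.48), with chromosome medians removed giving 0.31.

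Asb4, a maternally expressed ubiquitin-ligase adaptor of this cluster, was highest in TM6 and near 0 in PKO-6. Its libraries held 106, 152 and 133 normalized counts in TM6, 40.7, 33.2 and 49.1 in rho0, 7.14, 5.33 and 5.17 in PKO-1, and 0.819, 2.07 and 1.94 in PKO-6. No 2 lines overlapped. It fell in rho0 (log2 fold change -1.66 ± 0.2, edgeR adjusted p = 4.93e-06) and in PKO-1 (-4.45 ± 0.268, edgeR adjusted p = 6.08e-09). In PKO-6, 5 counts stood against 415 in TM6, a ratio of 83.3 (95% exact counting interval, 35.4 to 258). Ppp1r9a, the maternally expressed gene of the actin-binding protein neurabin, moved otherwise. It held 52.7, 63.1 and 69.8 normalized counts in TM6, 87.2, 119 and 113 in rho0, 33.3, 39.4 and 26.8 in PKO-1, and 486, 468 and 557 in PKO-6. Again no 2 lines overlapped, with PKO-6 far above the others. It rose in rho0 (0.78 ± 0.164, edgeR adjusted p = 7.48e-04) and in PKO-6 (3.03 ± 0.155, edgeR adjusted p = 7.06e-10) and fell in PKO-1 (-0.89 ± 0.19, edgeR adjusted p = 9.47e-04).

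Mest (chr6:30733506-30748466), a paternally expressed hydrolase gene linked to fetal growth, held 267, 247 and 236 normalized counts in TM6. The derived lines were nearly level, at 62.7, 63.8 and 58.2 in rho0, 55.9, 51.2 and 65.3 in PKO-1, and 56.3, 46.7 and 67.7 in PKO-6. All 9 of these libraries lay below the TM6 range. The log2 fold change was -2.01 ± 0.147 in rho0 (edgeR adjusted p = 3.11e-08), -2.12 ± 0.148 in PKO-1 (edgeR adjusted p = 2.85e-08) and -2.13 ± 0.146 in PKO-6 (edgeR adjusted p = 1.46e-08). Copg2, a coat protein gene on the opposite strand whose end overlaps that of Mest, rose in all comparisons with TM6. Its means were 1998 ± 90.1 in TM6, 3802 ± 270 in rho0, 3065 ± 84.6 in PKO-1 and 3799 ± 245 in PKO-6, and the log2 fold changes were 0.93 ± 0.0637, 0.62 ± 0.0638 and 0.93 ± 0.0636 (edgeR adjusted p = 1.71e-08, 1.43e-06 and 1.46e-08). With chromosome medians removed, the value in PKO-1 was 0.40, under the threshold.

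Mest and Copg2 share 913 exon bases. Although the libraries were made with a strand-specific kit, the estimates of both genes were not whole numbers in 12 of 12 libraries while their sums were whole in 12 of 12, so reads of the shared bases were divided between the strands. How much of the Mest value in the derived lines came from Copg2 reads was not tested. The promoter of Mest is shown because Mest fell in each comparison with TM6 and its promoter holds the hexamer TGCCGC, the site bound by ZFP57, a protein that protects imprinting marks. Its 2 matches, both on the opposite strand as GCGGCA, are in capitals (GRCm38.p6, chr6:30737800-30738049, plus strand, the 250 bases before the start at 30738050).
Mest promoter: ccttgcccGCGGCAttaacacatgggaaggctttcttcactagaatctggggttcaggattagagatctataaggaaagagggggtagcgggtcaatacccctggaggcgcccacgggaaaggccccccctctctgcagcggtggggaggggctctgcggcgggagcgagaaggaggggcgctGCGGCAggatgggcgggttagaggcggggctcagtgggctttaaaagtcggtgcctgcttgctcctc

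The RefSeq promoter set used here held sequences for 29 of the 36 genes, with 45 start sites between them. Cdkn1c, H19, Kcnq1, Rtl1, Peg10, Sgce and Impact had no entry in this set. Searched on both strands, TGCCGC occurred in the 250 bases before 7 of these 45 start sites (15.6%), which belong to Copg2, Meg3, Mest, Plagl1, Zdbf2 and Zim1, beside 8.7% of all 32851 promoters of the same length. The median number of CG dinucleotides was 10 in these windows and 6 in all promoters. The promoter of Snrpn and Snurf, with 3, and that of Peg3, with 8, lay below the median of the imprinted genes. The windows end at the start site, so CG dinucleotides beyond it were not counted and the control regions were not measured as a whole. A match is a description of these letters and was not related to binding in these cells.

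Plagl1 (chr10:13090788-13131695), a paternally expressed zinc-finger gene that restrains growth, held 2460, 2992 and 2989 normalized counts in TM6, 4239, 4985 and 4979 in rho0, 2000, 1986 and 2038 in PKO-1, and 6858, 6692 and 7761 in PKO-6. The lines did not overlap, with PKO-6 highest and PKO-1 lowest. It rose in rho0 (log2 fold change 0.75 ± 0.0857, edgeR adjusted p = 2.96e-06) and in PKO-6 (1.34 ± 0.0862, edgeR adjusted p = 7.63e-09). In PKO-1 it stood at -0.49 ± 0.0869, just short of the threshold, which it passed in 10 of 19 other settings. Impact (chr18:12972252-12992948), a paternally expressed regulator of translation under amino acid shortage, averaged 3195 ± 222 in TM6, 3223 ± 222 in rho0, 2234 ± 45.6 in PKO-1 and 2486 ± 169 in PKO-6. It fell in PKO-1 by 0.52 ± 0.0677 on the log2 scale (edgeR adjusted p = 1.44e-05), a call lost without TM6 replicate 3 (-0.46) or PKO-1 replicate 2 (-0.50). The median of the 382 tested genes of chromosome 18 was 0.42 in rho0, 0.42 in PKO-1 and 0.34 in PKO-6, and with it removed Impact was called in PKO-6 too (-0.70).

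Nnat, a paternally expressed proteolipid of the brain, was low in all lines, at means of 38.3 to 81.3 normalized counts with overlapping ranges, and no comparison passed the test. Zdbf2 was at 0 in all libraries but PKO-6 replicate 3, which held 1.94 normalized counts.

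Gnas (chr2:174284320-174346742), which encodes the stimulatory G protein subunit, was the most abundant of the 36 genes per length, at 702 TPM in TM6, 756 in rho0, 650 in PKO-1 and 686 in the PKO-6 clone. Its total passed no test, with log2 fold changes against TM6 of 0.13 in rho0, -0.07 in PKO-1 and 0.02 in PKO-6. This locus makes transcripts from several start sites, in the order Nesp (maternal), Gnasxl and exon 1A (paternal) and Gnas exon 1 (both copies in most tissues). Exon 1 accounted for 93.3% ± 3.39 of the counts in TM6, 89.6% ± 2.68 in rho0, 82.3% ± 1.03 in PKO-1 and 90.5% ± 5.41 in PKO-6. Transcripts from exon 1A took 6.46% ± 3.38 in TM6, 10.1% ± 2.58 in rho0, 17.3% ± 1.11 in PKO-1 and 9.29% ± 5.38 in PKO-6. Gnasxl transcripts held 13.7 ± 1.33 normalized counts in TM6, 16 ± 5.16 in rho0, 85 ± 27.3 in PKO-1 and 4.8 ± 3.57 in PKO-6. These shares rest on reads of common exons that the authors' counting divided among transcripts, and they were not tested.

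**Figure D4:**
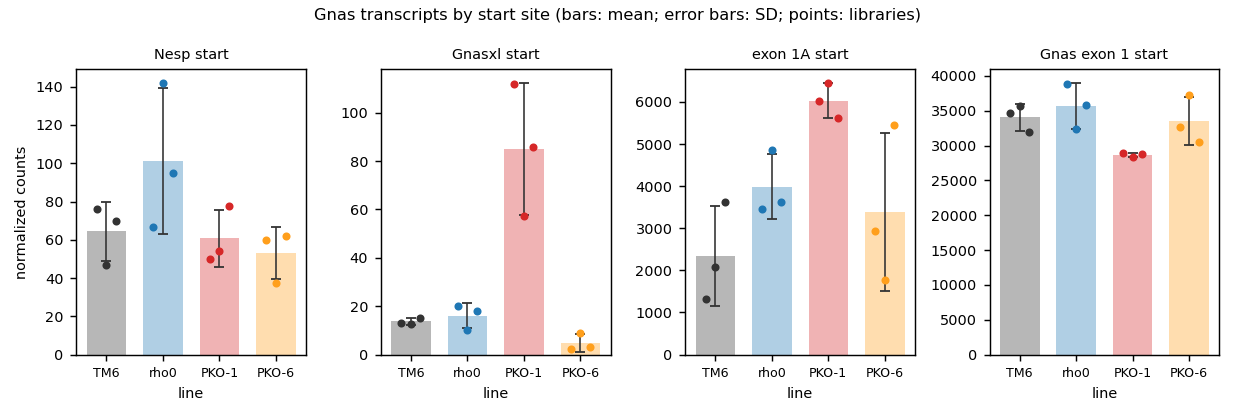
Normalized counts (y axis) of Gnas transcripts summed by start site (panels) in the 4 lines (x axis), with the mean of 3 libraries as a bar, the SD as an error bar and libraries as points. The y axes differ between panels: Gnas exon 1 averages 34063 in TM6 and Gnasxl 13.7, and the Gnasxl libraries of PKO-1 lie above those of all other lines.

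The 2 Cre-derived clones share their treatment and genotype, and the direct comparison of PKO-1 with PKO-6 therefore shows how far imprinted genes differed between clones. Snrpn had the largest ratio, with 945 counts over the PKO-1 libraries and 2 over those of PKO-6, a ratio of 554 (95% exact counting interval, 153 to 4578). Snurf was at least 48-fold higher in PKO-1. H19 was higher in PKO-1 by 5.14 ± 0.239 on the log2 scale (edgeR adjusted p = 5.41e-10), or by 5.88 without PKO-6 replicate 1, and Peg10 by 1.30 ± 0.0516 (edgeR adjusted p = 1.14e-10). Asb4 was low in both, at 16 counts for PKO-1 and 5 for PKO-6, and its ratio of 3.75 (95% exact counting interval, 1.31 to 13.1) was not called in 12 of 17 other settings.

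In the other direction, Ppp1r9a stood below its PKO-6 level in PKO-1, with a log2 fold change of -3.92 ± 0.17 (edgeR adjusted p = 2.85e-10). Phlda2 (-2.18 ± 0.231), Plagl1 (-1.82 ± 0.088), Slc22a18 (-1.63 ± 0.194), Peg12 (-0.87 ± 0.0913) and Ndn (-0.59 ± 0.078) were lower as well, with edgeR adjusted p between 8.00e-10 and 1.75e-05. For Mest, Igf2r, Mkrn3, Kcnq1ot1 and Gnas the log2 fold change between the clones lay between -0.17 and 0.02 and did not pass the test. These values do not show equal levels, least so for Kcnq1ot1, whose standard error was 0.32.

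**Figure D5:**
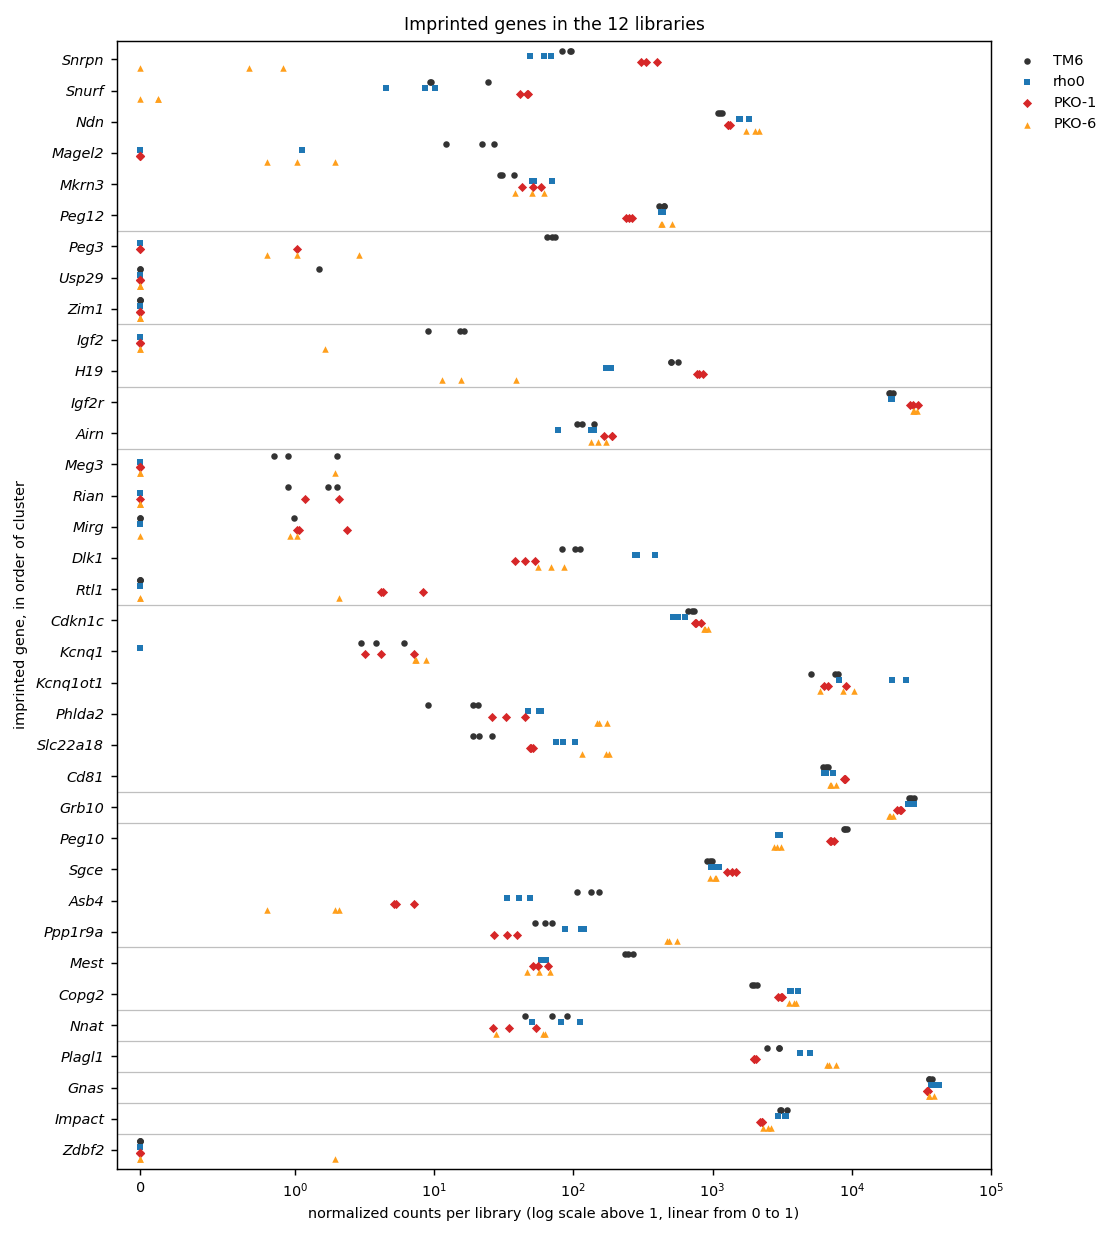
Normalized counts of the 36 imprinted genes (y axis, separated by cluster) in each of the 12 libraries (x axis, linear from 0 to 1 and logarithmic above), with 3 points for each line. The lines separate at Snrpn, H19, Asb4, Ppp1r9a and Plagl1, and also at Slc22a18 and at Cdkn1c, which was called in no comparison. No share of all genes is given for such separation. Usp29, Zim1, Meg3 and Zdbf2 stay near 0.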

How the data were processed

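Total RNA of 12 samples had been depleted of ribosomal RNA and sequenced with a strand-specific kit, from duplicate libraries per sample whose reads were merged. Per the labels and the study's methods, the authors aligned reads to RefSeq transcripts of mm10 (GRCm38) with RSEM 1.2.25 and deposited expected counts and TPM values for genes and transcripts. Whether that counting used strand is not given in the sources used here. Gene counts were rounded and tested with edgeR 4.0.16 (R 4.3.3): filterByExpr with a minimum count of 10, TMM scaling, and a quasi-likelihood fit of the 4 lines with Benjamini-Hochberg adjustment over 14026 genes. The study's thresholds were used, and its DESeq2 test (here DESeq2 1.42.0) was an alternative. The fit was also run on simulated counts with 200 genes changed in rho0 alone. That is far fewer than were called in the real comparisons, so scaling and false calls at that extent were not checked. Normalized counts are counts divided by the relative TMM-scaled library size, and CPM uses the same scaling. TPM was used only to compare levels between genes. Counting intervals and floors (95%, 3 counts) cover counting error only. All 36 members were named. The members and lists were chosen with earlier results of these data known. Genes of the other lists were eligible for naming where called without overlap at a mean of at least 100 normalized counts. At most the 3 largest changes per direction and comparison were eligible, and only some of these genes are named. Library totals ran from 47164860 to 67991378.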

Additional observations from a re-analysis of the deposited data

Results flagged for a closer look

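For 4 imprinted genes the 2 Cre-derived clones were called in opposite directions against TM6. The difference between the clones follows from that choice, and its values are given as a description. Snrpn was higher in PKO-1 than in TM6 and near 0 in PKO-6, a ratio of 554 between the clones. Snurf, which shares reads with Snrpn, was at least 48-fold higher in PKO-1 than in PKO-6. H19 differed by 5.14 on the log2 scale, higher in PKO-1 than in PKO-6. Ppp1r9a differed by -3.92, with PKO-1 the lower clone. The values of each library are given above.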

How the results depend on the processing

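The calls were recomputed with DESeq2 size factors, DESeq2's Wald test, no filter on low counts, only the compared groups, both clones pooled, each chromosome's median change removed, other thresholds and each library left out in turn. With the clones pooled, 8 imprinted genes changed in rho0, 8 in PKO-1 and 8 in PKO-6, since both clones then share 1 value, and 4 called values turned their direction: H19 (-0.34 in PKO-1), Ppp1r9a (2.12 in PKO-1), Snrpn (0.93 in PKO-6) and Snurf (0.59 in PKO-6). At an absolute log2 fold change above 1, 10 genes changed in rho0 and 9 in PKO-1. Leaving out single libraries gave 13 to 17 genes in rho0, 13 to 18 in PKO-1, 15 to 18 in PKO-6 and 10 to 11 between the clones, and of 1296 values for single genes 41 lost a call, 14 gained one and 0 called values changed direction. Uncalled values did change sign in some settings, as Plagl1 in PKO-1 did from -0.49 to 0.70 with the clones pooled. DESeq2's Wald test kept 105 of 108 values on the same side. A replicate block gave 16, 16, 15 and 10 genes in these 4 comparisons, and changed no call of a single gene but that of Asb4 between the clones (1.82), which was lost. Deviations from the line means correlated above 0.1 in 10 of 18 same-numbered pairs (median 0.124) and in 10 of 36 others (median -0.047). The 3 pairs of TM6 with PKO-6 all did (0.209 to 0.25), where the block left 15 calls as before, but no other pair of lines did, and the numbers were not treated as pairs. Genes with under about 20 counts per library, such as Igf2, Rtl1 and Kcnq1, are limited by counting error.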

Other observations

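Of 48 other imprinted genes in the matrix, 33 were tested. Of these, 6 were higher and 7 lower in rho0, 3 higher and 8 lower in PKO-1, and 6 higher and 7 lower in PKO-6 than in TM6. These shares of 39.4%, 33.3% and 39.4% lay near the 42.1%, 34.3% and 41.3% of all tested genes. Between the clones, 14 of the 33 differed (42.4%), above the 29.1% of all tested genes. Slc38a4, a paternally expressed amino acid transporter of the placenta, averaged 3632 ± 287 normalized counts in TM6 (SD, n = 3) and fell to 33.5 ± 9.89 in rho0, 131 ± 26.7 in PKO-1 and 80.9 ± 16.6 in PKO-6 (edgeR adjusted p = 2.32e-12, 1.46e-11 and 3.43e-12). Gatm, an enzyme of creatine synthesis, fell from 435 ± 58.2 to 42.7 ± 9.29 in rho0, 2.16 ± 1.82 in PKO-1 and 6.89 ± 3.25 in PKO-6. Dhcr7, which catalyses the last step of cholesterol synthesis, fell from 1481 ± 86.6 to 278 ± 16.4, 276 ± 9.35 and 274 ± 23.8. The study reported genes of cholesterol and sterol metabolism as reduced in both rho0 and PKO cells. Whether the fall of Dhcr7 bears on its imprinting was not tested. Ampd3 and Ano1, by contrast, were called higher in all 3 derived lines. Their log2 fold changes in rho0, PKO-1 and PKO-6 were 0.86, 1.08 and 0.61 for Ampd3, and 0.52, 0.80 and 1.65 for Ano1. Cobl, an actin nucleator that lies near Grb10, rose from 48.7 ± 3.51 in TM6 to 536 ± 20.6 in rho0 and 568 ± 14.5 in PKO-6, and held 63 ± 17.5 in PKO-1. Phactr2, which lies near Plagl1, averaged 1083 ± 32.1 in TM6, held 318 ± 22.2 in PKO-1 and 2745 ± 213 in PKO-6, a log2 fold change of -3.11 between the clones (edgeR adjusted p = 1.00e-12).

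Of 30 listed regulators of imprinting marks, some of which remove DNA methylation, 28 were tested. Of these, 4 were higher and 2 lower in rho0, 3 higher and 5 lower in PKO-1, and 2 higher and 3 lower in PKO-6. These shares of 21.4%, 28.6% and 17.9% lay below the 42.1%, 34.3% and 41.3% of all tested genes. Between the clones, 8 of the 28 differed (28.6%), near the 29.1% of all tested genes. Zfp57, a zinc-finger protein that binds methylated imprinting control regions, rose from 642 ± 113 normalized counts in TM6 to 2048 ± 342 in rho0 and 1582 ± 353 in PKO-6 (edgeR adjusted p = 2.87e-06 and 2.96e-05), and held 576 ± 121 in PKO-1. The de novo methyltransferase Dnmt3a fell in rho0 from 1422 ± 25.9 to 789 ± 31.7. Dnmt3b averaged 135 ± 25.6 in TM6, rose to 212 ± 41.1 in rho0 and fell to 69.6 ± 3.09 in PKO-1. Tdg, a glycosylase of active demethylation, fell from 4207 ± 225 to 2799 ± 275 in rho0, 2303 ± 339 in PKO-1 and 2525 ± 323 in the PKO-6 clone. The part of these genes in the levels of the imprinted genes was not tested.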
